A study of Arabidopsis thaliana with 2 samples.

Results

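Peaks of the NAC transcription factor ATAF1 lay over 3 Arabidopsis thaliana genes that encode AP2/ERF transcription factors: ERF3 (AT1G50640), LEP (AT5G13910) and TINY2 (AT5G11590). Their peaks were chosen from the deposited list as those whose overlap column names one of the 3 genes on its own chromosome. They are 3 of 439 peaks, 1 for each gene. The choice itself rests on the peak list, so every value taken from it is a description and none was tested.

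Chromatin was immunoprecipitated with an anti-HA antibody (H6908, Sigma-Aldrich) from rosettes of 2 genotypes in the Col-0 ecotype. One was 35S:ATAF1-HA, in which the viral 35S promoter, active in most plant tissues, drives HA-tagged ATAF1. Peaks of such an over-expressing line need not be bound at the level of the native protein. The other was wild-type Col-0 without the tag. Plants of both stood on soil for 5 weeks with 8 h of light per day at 21 °C and 65% relative humidity, and 10 ng of precipitated DNA went into each library. There was 1 library per genotype, so no value has a replicate and no difference between genotypes could be tested. The deposited list gives 1 read total per peak without naming the library, and the sequencing depth of either library is unknown.

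AP2/ERF proteins are plant transcription factors that bind DNA through a shared AP2 domain. Members of the ERF branch typically recognise the GCC box of ethylene- and defence-responsive promoters, and members of the DREB branch the dehydration-responsive element found in drought- and cold-responsive promoters. NAC factors such as ATAF1 form another plant-specific family with roles in stress responses and leaf senescence. ERF3 is a repressor of the ERF branch that carries an EAR repression motif. LEP, named LEAFY PETIOLE, is also an ERF-type factor, known from plants in which its activation puts leaf blade on the petiole. TINY2 is a DREB-type factor related to TINY, whose over-expression gives small plants.

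The repressor gene ERF3 held a peak at chr1:18757633-18757637 in TAIR 9 coordinates. In the authors' deposited table, the source of all peak values here, it carried 397 reads, 165 forward and 232 reverse, over a length of 4 bp, where length is the end minus the start. The deposited false discovery rate (FDR), the authors' estimate of the share of false peaks at that level, was 0.123%. This was the shortest of the 3 peaks. Of the 439 peaks 14 were shorter and 2 others were equally long, against a median of 40 bp.

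The LEP peak lay at chr5:4482756-4482791 and carried 420 reads, 221 forward and 199 reverse, over 35 bp. Its FDR was 0.087%. It had the most reads and the lowest FDR of the 3, with a length close to that of most peaks in the list, whose quartiles were 27 and 58 bp.

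The TINY2 peak lay at chr5:3727994-3728041 and carried 216 reads, 76 forward and 140 reverse, over 47 bp. Its FDR was 0.149%. It was the longest of the 3 peaks and had the fewest reads, and it was the farthest from an even split between strands.

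Set against the whole list, LEP and ERF3 stood near the top by reads, and TINY2 in the middle. LEP ranked 33 and ERF3 ranked 40 of 439 by reads, while TINY2 ranked 217 with the median of the list at 215 reads. Fewer reads than LEP were found in 92.5% of peaks, fewer than ERF3 in 90.9% and fewer than TINY2 in 50.1%. By FDR the 3 genes stood much closer together, at ranks 94, 109 and 123 for LEP, ERF3 and TINY2. An FDR under 1% was given to all 3 peaks and to 51.5% of the list. The deposited p-value, whose test the sources used here do not name, was 0 for all 3 and for 85% of the list.

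**Figure D1:**
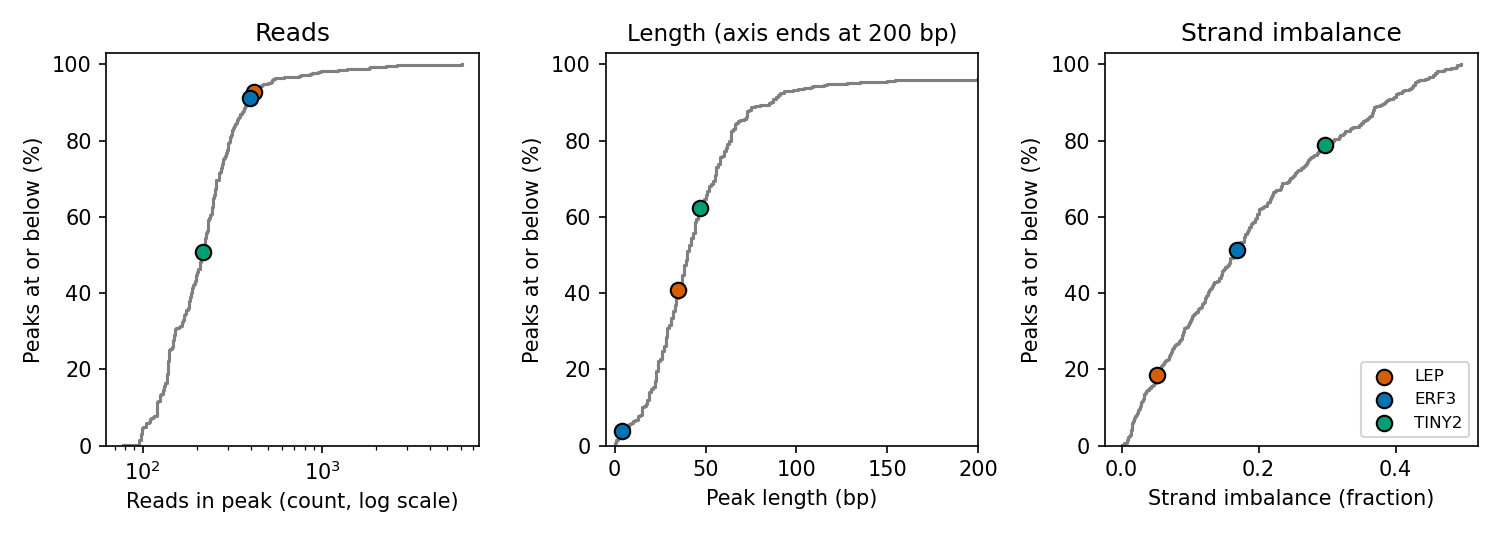
Cumulative share of the 439 peaks (%) at or below a given number of reads (log axis), length in bp or strand imbalance (a fraction), with the peaks over ERF3, LEP and TINY2 as coloured points on the grey curve. LEP (420 reads) and ERF3 (397) sit near the top of the read curve and TINY2 (216) at its middle, while ERF3 (4 bp) sits near the foot of the length curve, whose axis ends at 200 bp with 17 longer peaks beyond it.

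Reads over the number of positions in a peak gave another order. ERF3 had 79.4 reads per position, LEP 11.7 and TINY2 4.5, against a list median of 5.15. ERF3 thus ranked 13 of 439 by this measure, LEP 74 and TINY2 246. The high value of ERF3 goes with a peak of 5 positions, fewer than in most peaks. Peak boundaries come from the authors' peak calling, so this measure follows how narrowly a peak was drawn as well as how many reads it held.

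The strands were read unequally over ERF3 and TINY2 and about equally over LEP. Forward reads made up 41.6% of the ERF3 peak (exact Clopper-Pearson 95% interval 36.7 to 46.6) and 35.2% of the TINY2 peak (28.8 to 42). In LEP they made up 52.6% (47.7 to 57.5), an interval that holds 50%. Both unequal peaks had more reverse reads, by 67 in ERF3 and by 64 in TINY2, as had 54.4% of the list. An interval that excludes 50% was found in 2 of the 3 peaks and in 56.3% of all peaks, and one wholly below 50% in 33% of all peaks. The intervals cover counting error only, and sequenced reads without molecular identifiers are not independent molecules. The deposited strand imbalance, which is 0 for an even split and 1 when all reads are on 1 strand, was 0.169 for ERF3, 0.052 for LEP and 0.296 for TINY2. It was lower than that of TINY2 in 78.6% of peaks and lower than that of LEP in 18.2%, and ERF3 was near the list median of 0.165. The highest value in the list was 0.495, so these places hold only among peaks up to that value.

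**Figure D2:**
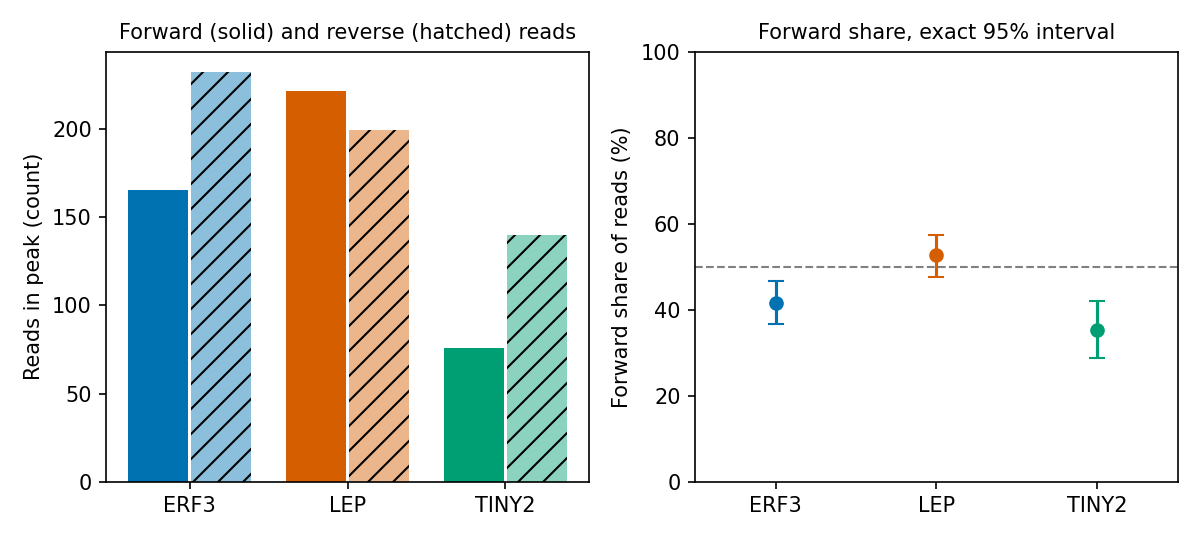
Left, forward (solid) and reverse (hatched) reads in the peaks over ERF3, LEP and TINY2, as counts. Right, the forward share of those reads (%) with its exact 95% interval and a dashed line at 50%; the intervals of ERF3 (36.7 to 46.6) and TINY2 (28.8 to 42) lie below the line and that of LEP (47.7 to 57.5) crosses it.

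Reads and FDR put the 3 genes in the same order, but FDR set them much closer together in the list. ERF3 had 397 reads and TINY2 216, yet their FDRs were 0.123% and 0.149%. Over all 439 peaks the rank correlation of reads with FDR was -0.71 (Spearman's rho, a description, since both values of a peak come from the same reads). Among the 39 other peaks within 10 reads of TINY2, the FDR ran from 0.087% to 4.85%. TINY2 was thus near the low end of FDR for its number of reads. For ERF3, 5 other peaks within 10 reads had FDRs from 0.0447% to 4.29%, and for LEP 7 such peaks had FDRs from 1.02e-05% to 0.194%. Of the peaks with fewer reads, a lower FDR was given to 5 of 220 for TINY2, 78 of 399 for ERF3 and 68 of 406 for LEP.

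**Figure D3:**
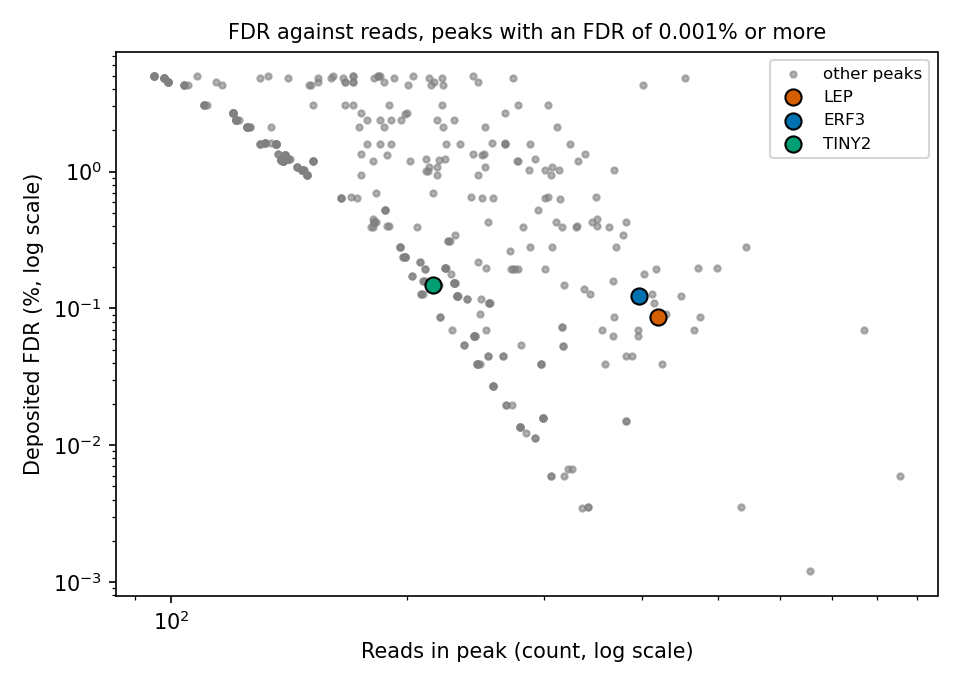
Deposited FDR (%, log axis) against reads per peak (count, log axis) for the 415 peaks with an FDR of 0.001% or more, 1 grey point per peak, with 24 peaks of lower FDR not drawn. The points of ERF3, LEP and TINY2 lie at nearly the same height (0.123%, 0.087% and 0.149%), although TINY2 has 216 reads and the other two have 397 and 420.

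The peaks most like each of these by read total, among those over protein-coding genes, differed from it in length. In 5 of the 6 the interval of the forward share also lay apart from that of the gene, a count that has no share over all peaks beside it. Over all 439 peaks the quartiles were 27 and 58 bp for length and 40.1% and 56.5% for forward share. How often any peaks of like read total differ in this way was not counted, so these differences cannot be read as a trait of the 3 genes. Closest to ERF3 were AT3G01270, with 395 reads over 26 bp (forward share 38.2%), and QRT3 (AT4G20050), a polygalacturonase gene of pollen separation, with 403 reads over 44 bp (forward share 56.6%). The interval of AT3G01270 (33.4 to 43.2) overlapped that of ERF3, with more reverse reads in both, while that of QRT3 (51.6 to 61.5) lay wholly above it. Both peaks were longer than the 4 bp of ERF3, and their FDRs were 0.0627% and 0.179%. Closest to LEP were AT5G20700, with 425 reads over 64 bp, and AT2G07667, with 414 reads over 74 bp. Forward shares there were 40.2% and 38.4%, with intervals of 35.5 to 45.1 and 33.7 to 43.3 that lie wholly below the LEP interval. Closest to TINY2 were the peroxidase gene PRX71 (AT5G64120), with 216 reads over 24 bp, and AT2G40820, with 215 reads over 29 bp. The PRX71 peak had the FDR of TINY2, 0.149%, and that of AT2G40820 had 4.29%. Their forward shares of 54.2% (47.3 to 60.9) and 51.6% (44.7 to 58.5) were above that of TINY2, and the intervals did not overlap with it. All 6 of these peaks had a p-value of 0.

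In the annotation of the list each of the 3 peaks named 1 gene and no other. Each gene name stood 3 times in the overlap column, as in 77.7% of the 291 peaks over protein-coding genes. What the repeats stand for is not given, and the list states neither strand nor exon, intron or untranslated region. The neighbour columns give a gene on either side with a distance in bp. For the LEP peak they name AT5G13900 at 867 bp on the 5′ side and LEP itself, without a distance, on the 3′ side. For the TINY2 peak they name AT5G11580 at 6660 bp and TINY2 itself in the same way. An overlapped gene repeated like this, without a distance, was found in 23.5% of peaks. For the ERF3 peak the columns name AT1G40123 at 3543904 bp and AT1G61795 at 4061994 bp. In the order of genes in RefSeq, ERF3 instead stands between the long noncoding RNA gene AT1G07657 and the protein-coding gene AT1G50650. The neighbour columns therefore leave out the genes next to ERF3. No gene standing next to ERF3, LEP or TINY2 in that order was itself named as overlapped. Only 1.05% of all protein-coding genes were, so this is no result about the 3 peaks.

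The nearest other peak lay between 28.1 and 126 kb from each of the 3 genes' peaks. The nearest other peak to ERF3 was 29.9 kb away, over AUG4 (AT1G50710) with 282 reads, and on its other side RGE1 (AT1G49770) with 140 reads was 332 kb away. LEP had its nearest peak at 28.1 kb, over AT5G13980 with 175 reads. On its other side the nearest was at 85.9 kb over PDAT (AT5G13640), also with 175 reads. LEP therefore had 2.4 times as many reads as either neighbour. TINY2 had its nearest peak at 126 kb over CYC3B (AT5G11300), with 243 reads. On its other side the nearest was at 519 kb over RARE1 (AT5G13270), with 279 reads. Both peaks beside TINY2 held more reads than TINY2 itself. LEP and TINY2 are on the same chromosome, 755 kb apart, with 3 other peaks between them.

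Within the AP2/ERF family the 3 genes belong to different groups. A list of 94 family members in 12 groups was set beside the peaks. It held ERF3 among 8 genes of the ERF repressor group, LEP among 4 genes of the LEP and ESR group, and TINY2 among 17 genes of the TINY and DREB1 group. No other member of these groups was named as overlapped, among them the repressor gene ERF4, the shoot regeneration gene ESR1 and the DREB-type gene TINY. Only 1.05% of the 27444 nuclear protein-coding genes were overlapped, so this absence is no result about these relatives. Over the whole family list the count was 3 of 94, against that 1.05%. Since the 3 genes were chosen because they are overlapped, nothing is read from that difference.

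The 9 other groups had 0 members overlapped, which is near the 1.05% of all protein-coding genes and is no result about these groups. They were DREB2 and ABI4 genes of drought and abscisic acid responses (0 of 8), the RAP2.4 group (0 of 3), cuticle regulators of the SHINE group (0 of 4), cytokinin response factors (0 of 6), the hypoxia-related ERF-VII group (0 of 5), activators of ethylene and jasmonate responses (0 of 13), the ABR1 and RAP2.6 group (0 of 6), the AP2 subfamily of floral and meristem regulators (0 of 17) and the RAV subfamily (0 of 3). None of the 91 genes without a peak appeared in the neighbour columns either, at any distance. Those columns are incomplete, as seen for ERF3, and promoters were not scored, so binding near these genes was not measured here.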

How the data were processed

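The 1 peak list that the authors deposited was used as it stands. The submitters' processing notes name TAIR 9; no source used here names the aligner, the peak caller or its use of the wild-type library. The headers of the read counts per peak (total, forward, reverse) name no scaling to depth or length, and the counts are whole numbers. The deposited FDR is a percent and the deposited p-value lies between 0 and 1. Strand imbalance was deposited as a fraction, and recomputing it from the strand counts gave the same value, within 1e-06, for 438 of 439 peaks.

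Annotation text on 177 continuation lines was joined. Gene names were matched by locus, symbol or synonym on the peak's chromosome to RefSeq TAIR10.1, which was used for names, biotypes and gene order only. A symbol shared by several loci (4 cases) took the locus number nearest to those of neighbouring peaks. Positions in a peak are length plus 1. Ranking was checked on simulated data. Members and gene lists were chosen with earlier results of these data known. The family list was written by hand: all 94 loci are in RefSeq, where 86 carry the listed symbol, and it is not the whole family. Genes named are the 3, other listed family genes at a peak, genes in the annotation of the 3 peaks, and the 2 protein-coding peaks closest to each in reads (ties by FDR); neighbouring peaks and relatives were added after values were seen. Protein and DNA sequences were not analysed here. Python 3.11.15, SciPy 1.17.1, NumPy 2.4.6 and Matplotlib 3.10.9 were used.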

Additional observations from a re-analysis of the deposited data

How the results depend on the processing

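The share of peaks ranked below each gene moved with the way of ranking, mostly beyond the exact 95% binomial interval of the first value. That interval served as a yardstick only. All peaks of the list were ranked, so it measures no sampling error and the moves were not tested. The share was 90.9% for ERF3, 92.5% for LEP and 50.1% for TINY2 by reads over all peaks. Among peaks over protein-coding genes it was 94.2% for ERF3 and 95.5% for LEP, and TINY2 stayed within its interval at 52.6%. Among peaks with an FDR under 1% it was 83.2%, 85.8% and 21.7% for ERF3, LEP and TINY2, which follows from leaving out peaks that mostly had fewer reads. By reads per position it was 97%, 83.1% and 44%, and by FDR, as the share of peaks with a higher FDR, 73.6%, 77.7% and 71.3%; for these and for protein-coding genes the cause was not tested. The number of family genes overlapped was 3 in the main setting, with peaks under 1% FDR, with neighbour-column genes up to 1000 or 3000 bp away added, and in the 74 genes without the AP2 and RAV subfamilies. The planned protein comparison was not run. No paired analysis was possible because the list gives 1 value per peak and there was 1 library per genotype. Depth per library is unknown.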

Other observations

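The FDR of the ERF3 and LEP peaks recurred at peaks with other read totals. Some of these had as their own total the number of reads that ERF3 or LEP held on 1 strand. The FDR of LEP, 0.087%, was also given to 4 other peaks. None of these had 420 reads, and 3 of them held the number 221, the forward count of LEP, as their own total (2 peaks) or forward count (1 peak). The fourth, over AT1G40104 with 475 reads, held 221 in neither its total nor its strand counts. The FDR of ERF3, 0.123%, was also given to 7 other peaks, of which 6 held 232, the reverse count of ERF3, as their total (5 peaks) or forward count (1 peak). The other had 233 reads and 232 in none of its counts. For TINY2, whose FDR of 0.149% recurred in 3 other peaks, the shared number was its total of 216, in 1 of them. These ties were noticed after the values were seen, and no source used here says how the peak caller set the FDR. How often other peaks of equal FDR share a number in this way was not counted.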
